A study of Mus musculus with 8 samples.

Results

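Long noncoding RNAs (lncRNAs) are transcripts that are not translated into protein. The 100 described here were chosen by abundance alone: the deposited lncRNA counts were summed over all 8 libraries, and the 100 symbols with the largest sums were taken from the 3840 symbols of the lncRNA table. Of these 3840 symbols, 2859 had at least 1 read, and the median symbol had 10 reads. The sums of the 100 ran from 404610 reads for Malat1 to 7747 for Gm17306. Just inside the limit were Gm17504 with 7939 reads, Gm17122 with 7919 and Gm17306, and just outside were 9430008C03Rik with 7615 reads, Gm15512 with 7588 and 4930473A02Rik with 7558, so the limit falls in a continuous series. The selection rule also left out 5 symbols, whose sums were at most 2563 reads and so could not have entered. Abundance is what the choice used, while genotype and culture time played no part in it.

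The cells were immortalized mouse dental papilla cells, the mesenchyme of the tooth germ from which odontoblasts arise. The iBmp2fx/fx cells carry floxed alleles of Bmp2, a bone morphogenetic protein, and in the iBmp2ko/ko cells derived from them Bmp2 was deleted. Each genotype gave a total RNA library after 6, 24, 48 and 72 h in culture, 8 in all, and the design text has 8 h where the labels have 6 h. Each genotype was 1 cell line, so that genotype and line cannot be told apart, and no genotype has a repeat at any time. The p-values of a genotype test without culture time therefore measure the spread between times. In tests with culture time as a term they measure what is left after it, mainly how the genotype difference varies between times. The cell lines are there the only repeats of a time. The genotypes were compared over the 6 libraries of 6, 48 and 72 h, the times in the study's methods.

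A library had 25890110 to 32415665 gene reads and 401106 to 578498 lncRNA reads, the latter being 1.51 to 1.89% of the gene reads. Bmp2 had 1 read in all 8 libraries together, so its level cannot check the genotype labels. Of 12 dental papilla markers 10 reached 1 CPM (the usual scaling of a count to the sequencing depth, here the reads on genes), while Lhx8 and Barx1 had at most 1 read in a library. The sum of the 12 came mostly from Vim, Col1a1 and Col1a2. It was 6506 to 8659 CPM in the 3 iBmp2fx/fx libraries and 8908 to 13247 CPM in the 3 iBmp2ko/ko libraries. Msx1, Msx2, Dlx1, Dlx2, Lhx6 and Twist1 went the other way, each lower in all 3 iBmp2ko/ko libraries than in any iBmp2fx/fx library. Dlx2 ran from 41.0 to 55.4 CPM and from 3.74 to 17.2 CPM. Pax9 was higher, with 1.96 to 2.25 CPM and 2.72 to 3.56 CPM. The odontoblast markers, mostly through Alpl, summed to 14.4 to 61.2 CPM in the 3 iBmp2fx/fx libraries and to 1.70 to 2.94 CPM in the 3 iBmp2ko/ko libraries, and Dspp had at most 1 read. The neural markers, mostly Tubb3, summed to 21.3 to 42.1 CPM and to 44.7 to 58.5 CPM. The part of these shifts in the results was not tested. The iBmp2ko/ko library of 24 h stood apart, with 15 CPM of odontoblast and 21.04 CPM of neural markers. Over the 100 lncRNAs its median difference from the iBmp2fx/fx library of 6 h was 0.07 on the log2 scale, the smallest of all 28 pairs of libraries, and the next pair, iBmp2fx/fx at 24 and 48 h, differed by 0.15. Over all genes the chi-square per degree of freedom of the same pair was 4.98, against 39.7 for the next pair, while over the 100 lncRNAs it was 98.8, against 53.6 for iBmp2fx/fx at 24 and 48 h. The library labelled iBmp2ko/ko at 24 h is left out of the genotype and time tests unless stated, and named wherever its own value is given. It does enter the values over 8 libraries, that is the sums, the RPKM means, the folds and SDs between libraries and the correlations with other genes. Whether its label is right was not tested.

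Abundant lncRNAs of mammalian cells fall into a few well-known kinds. Some are structural or chromatin-bound nuclear RNAs, such as Malat1, which is concentrated in nuclear speckles where splicing factors gather, and Neat1, the scaffold of paraspeckles. Others are host genes of small nucleolar RNAs (snoRNAs), whose introns release the guide RNAs that modify ribosomal RNA and whose spliced exons are often short-lived. Still others are host genes of microRNAs, transcribed copies of coding genes, or transcripts antisense to a coding gene. A read from an antisense transcript can be told from a read of the coding gene only if the counting uses strand, and the strand setting used here is not given in the sources.

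On GENCODE M1 (mm9) all 100 symbols were found, 56 as lincRNA and 44 as processed transcript. Their exonic length ran from 338 to 20771 bases with a median of 2498, and 9 had a single exon. In 61 the exons shared bases with an exon of a protein-coding gene on the opposite strand, in 7 on the same strand, and in 32 with none. Of the other 1239 lncRNAs tested, 60.2% shared bases on the opposite strand, close to the share among the 100, while 2.58% did so on the same strand and 37.2% with no coding exon. The 32 without a shared exon held 52.4% of the reads of the 100, Malat1 included. In RefSeq 33 of the 100 were listed as lncRNA, 20 as protein coding, 4 as pseudogenes and 1 as a snoRNA, and 42 symbols were not listed. Among the symbols are those of protein genes, such as Spcs3, Nlrc5, Tead1, Oaz2 and Lsm3, of which a noncoding gene model with that name was counted. Spcs3 had 42946 reads by the lncRNA models and 42945 by the gene models, and Nlrc5 had 36539 and 36001. Both are among the 32 without a shared coding exon, so reads of a protein gene may be counted there too. Of the 34 symbols that are also in the gene table, 15 had counts there within 10% of the lncRNA table, 10 had 20 to 90% of them, 7 had under 20%, and Tead1 and Lsm3 had more.

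The sequences show what sharing an exon means for the counts. Below are 80 bases of the exons of 4 lncRNAs whose differences follow a coding gene, written 5′ to 3′ in the direction of the lncRNA (build NCBIM37, which is mm9). Capitals mark bases that are coding sequence of the gene on the other strand.
Gm16567, chr6:124480965-124481044, plus strand, opposite C1s: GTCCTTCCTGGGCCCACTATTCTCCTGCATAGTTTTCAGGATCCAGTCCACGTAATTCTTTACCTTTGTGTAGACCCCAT
4930483K19Rik, chr10:76008767-76008846, minus strand, opposite Lss: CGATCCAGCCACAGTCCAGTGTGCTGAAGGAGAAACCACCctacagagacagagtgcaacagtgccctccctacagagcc
Gm15270, chr10:24316538-24316617, minus strand, opposite Ctgf: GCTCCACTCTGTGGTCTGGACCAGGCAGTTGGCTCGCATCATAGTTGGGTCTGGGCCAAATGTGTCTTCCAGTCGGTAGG
Gm9917, chr9:107463690-107463769, minus strand, opposite Rassf1: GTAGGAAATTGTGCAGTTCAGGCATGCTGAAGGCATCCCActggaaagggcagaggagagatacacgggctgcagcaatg
The windows of Gm16567 and Gm15270 lie wholly inside a coding exon, and those of 4930483K19Rik and Gm9917 cross the edge of one. Without the strand, a read of the capital bases belongs equally to either gene. All 576 exonic bases of Gm16567 lie within exons of C1s, 406 of them in its coding sequence.

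The 6 snoRNA host genes with a RefSeq transcription start are shown because many host genes begin with a run of pyrimidines at the start, like the 5′TOP mRNAs of ribosomal proteins. Each line gives 20 bases before and 40 after the start (RefSeq, GRCm38.p6), and capitals mark the longest unbroken run of C and T that touches the stretch from 10 bases before to 15 bases after it, on the strand of the gene.
Gas5: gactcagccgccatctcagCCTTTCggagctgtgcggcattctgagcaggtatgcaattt
Snhg1: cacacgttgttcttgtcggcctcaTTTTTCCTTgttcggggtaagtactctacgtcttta
Snhg5: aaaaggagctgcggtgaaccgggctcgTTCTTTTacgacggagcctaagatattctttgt
Snhg12: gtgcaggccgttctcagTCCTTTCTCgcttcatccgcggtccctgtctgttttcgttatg
1110038B12Rik: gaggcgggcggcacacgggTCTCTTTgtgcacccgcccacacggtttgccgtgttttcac
2410006H16Rik: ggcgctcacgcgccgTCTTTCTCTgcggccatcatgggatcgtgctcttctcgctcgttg
The runs were 6 bases long in Gas5, 7 in Snhg5 and 1110038B12Rik, and 9 in Snhg1, Snhg12 and 2410006H16Rik. Of all 32851 starts in that table, 33.1% had a run of at least 6 bases there, 22.3% of at least 7 and 10.7% of at least 9, so runs of this length are common. For Gas5 and 1110038B12Rik, of which 2 starts are listed, the start with the longer run is shown, or the one of lower coordinate on a tie.

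The 100 lncRNAs together held 58.4 to 64.7% of the lncRNA reads of a library. Malat1 alone held between 4.01 and 20.6%, and the 10 most abundant between 20.5 and 32.7%. The Malat1 share over the 6 libraries was 10.1 ± 3.92% in the iBmp2fx/fx cells and 10.01 ± 9.23% in the iBmp2ko/ko cells (mean ± SD, n = 3, two-sided exact permutation p = 1.0). The share of the 10 most abundant was 24.2 ± 3.05% and 25.04 ± 6.65% (n = 3, exact permutation p = 0.9). With 3 libraries per genotype this test cannot go below 0.1. The spread between culture times was larger than the difference between the genotypes.

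**Figure D1:**
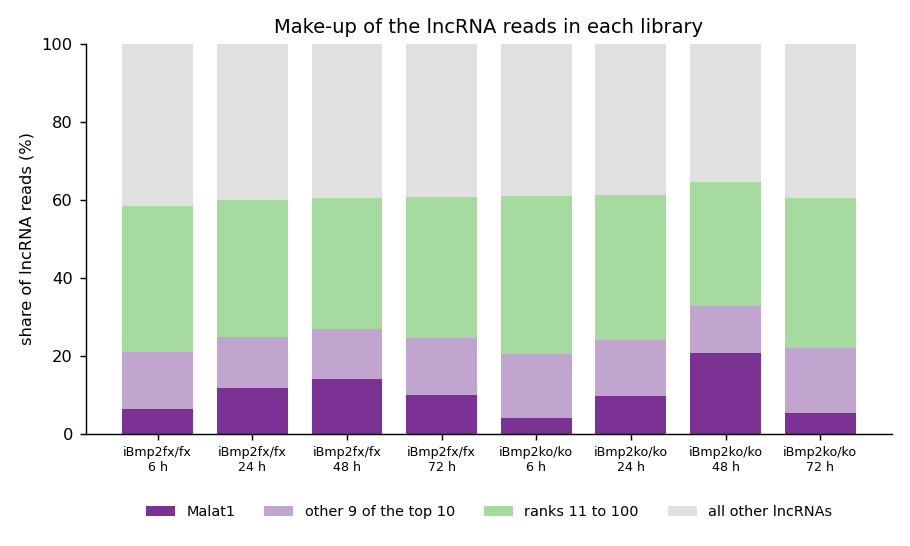
Share of the lncRNA reads of each library (y axis, %) held by Malat1, by the other members of the 10 most abundant, by ranks 11 to 100 and by all other lncRNAs, with 1 bar per library. The Malat1 part is largest at 48 h in both genotypes, at 14.1% in the iBmp2fx/fx cells and 20.6% in the iBmp2ko/ko cells.

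Levels are given as CPM of the gene reads, or per kilobase of exon (RPKM) where genes are compared. Per length Cd63-ps was the most abundant with 387 RPKM (mean of 8 libraries), followed by Gm13826 with 307, 2410006H16Rik with 249, Malat1 with 243 and Gm15564 with 235, and the median of the 100 was 29.0. Neat1, of which the long isoform spans many kilobases, had 13.95 RPKM. Between its highest and lowest library a member differed by a median of 1.91-fold. The difference was under 1.5-fold in 20 members and over 5-fold in 8, up to 15.3-fold in Gm15270. The steadiest members, by the SD of log2 CPM over 8 libraries, were 4632419I22Rik (0.08, from 181 to 217 CPM), Gm17344 (0.12), Gm14872 (0.12), Gm13789 (0.14) and A230103J11Rik (0.15). All 5 share an exon with a coding gene on the opposite strand. 4632419I22Rik shares 12.3% of its exonic bases with Med13, a Mediator subunit, and its genotype difference of -0.04 was not that of Med13 (-0.55).

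Malat1 had 948, 1848, 2296 and 1519 CPM in the iBmp2fx/fx libraries of 6, 24, 48 and 72 h. In the iBmp2ko/ko libraries it had 636, 3903 and 834 CPM at 6, 48 and 72 h, and 1585 CPM in the library of 24 h. The level was highest at 48 h in both genotypes, and the ranges of the genotypes overlapped. Neat1 had 312, 299, 412 and 177 CPM in the iBmp2fx/fx libraries, and 163, 432 and 153 CPM in the iBmp2ko/ko libraries of 6, 48 and 72 h with 370 CPM at 24 h. It too was highest at 48 h and lowest at 72 h in both genotypes. Its mean ± SD was 300.5 ± 118 CPM in the iBmp2fx/fx cells and 249 ± 158 CPM in the iBmp2ko/ko cells (n = 3).

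Neither nuclear RNA passed the genotype test. The log2 fold change of Malat1 from iBmp2fx/fx to iBmp2ko/ko cells was 0.17 (SE 0.68, edgeR adjusted p = 0.98), and it was -0.23 with culture time as a block, so that its direction is not set. That of Neat1 was -0.26 (SE 0.47, edgeR adjusted p = 0.94), and -0.36 (edgeR adjusted p = 0.27) with the block. Tug1, a mostly nuclear lncRNA that is also linked to p53, had 141, 115 and 117 CPM in the iBmp2fx/fx libraries of 6, 48 and 72 h and 102, 107 and 103 CPM in the iBmp2ko/ko libraries. These ranges did not overlap, but the difference of -0.25 had an edgeR adjusted p of 0.79. The library labelled iBmp2ko/ko at 24 h had 154 CPM of Tug1, above all the others. Pvt1, a lncRNA next to Myc, ranged from 19.97 to 49.0 CPM over the 6 libraries and differed by -0.20 (SE 0.41).

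Over all 100 lncRNAs, which all passed the filter on low counts, the genotype difference was small. The fold and p limit used here, taken from the study's text, which does not say whether p was adjusted and elsewhere names a Q value, was a change of more than 1 on the log2 scale in either direction with p below 0.05, here unadjusted. By it 2 members were higher in the iBmp2ko/ko cells and 1 was lower (edgeR). Of the 1339 lncRNAs tested, 3.14% were higher and 3.58% were lower at this limit. The counts of members became 4 and 0 without the iBmp2fx/fx library of 72 h, 1 and 0 without the iBmp2ko/ko library of 6 h and 4 and 2 without that of 72 h. At an adjusted p of at most 0.05 no member passed in edgeR (0 of 100), where 0.299% of all lncRNAs tested were higher and 0.597% were lower. At an unadjusted p below 0.05, 6 members were higher and 1 was lower, beside 5.15% and 5.23% of all lncRNAs tested. DESeq2 called 1 member higher and 0 lower at an adjusted p of at most 0.05, beside 1.05% and 1.34% of all. A log2 fold change beyond 1 in size was seen in 4 of the 100 and in 9.19% of all tested, whose counts are lower. The median log2 fold change was 0.16 over the 100 and 0.02 over all tested.

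The levels in the 3 iBmp2ko/ko libraries lay above all 3 iBmp2fx/fx libraries in 10 members and below them in 6. Over all lncRNAs tested the same held for 7.02% above and 7.84% below, so these counts are near the background. Culture time pairs these 6 libraries, since libraries of the same time deviated together from their genotype mean, which those of 24 h did not (correlation -0.15 over 8 libraries). With culture time as a block, 12 members were higher and 5 were lower in the iBmp2ko/ko cells at an adjusted p of at most 0.05 (edgeR), beside 4.78% and 5.08% of all lncRNAs tested. With the 24 h libraries added to this fit, 1 was higher and none lower (edgeR, 0 of 100), beside 0.0759% and 0.0% of all 1318 lncRNAs in this fit. At an unadjusted p below 0.05 that fit had 17 members higher and 5 lower, beside 117 and 138 (10.5%) of all 1318. Of the 12 and 5 members called with the block over 6 libraries, 17 in all, 10 share exons with a coding gene, as do 68 of all 100. In 14 of the 17 the library labelled iBmp2ko/ko at 24 h was nearer to the iBmp2fx/fx mean than to the iBmp2ko/ko mean, as it was in 67 of all 100.

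**Figure D2:**
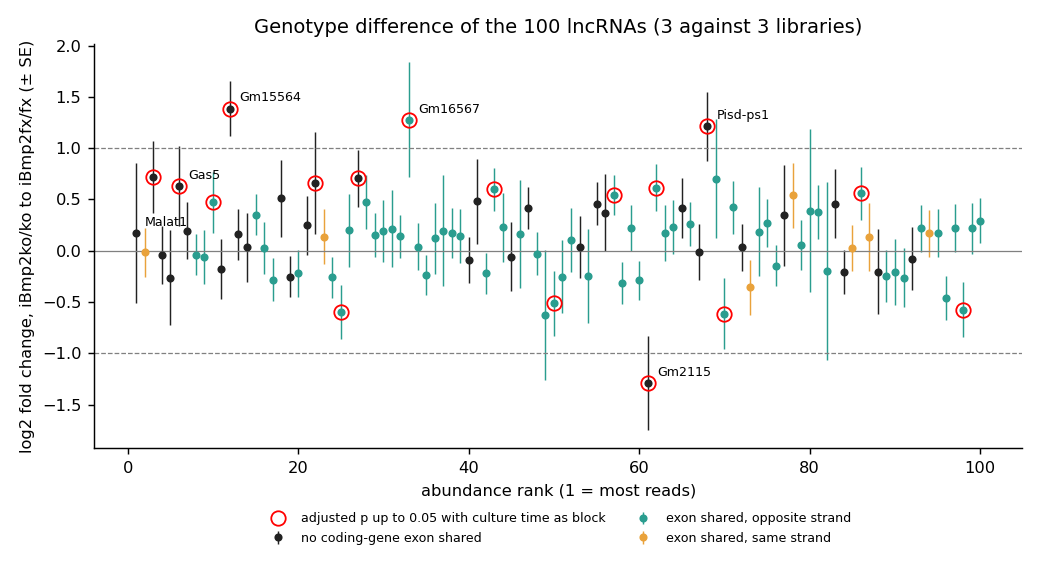
Log2 fold change from iBmp2fx/fx to iBmp2ko/ko cells with its standard error (y axis) against abundance rank (x axis) for the 100 lncRNAs, over 3 libraries per genotype. Dashed lines mark a log2 fold change of 1 in size, red circles the 17 members with an adjusted p of at most 0.05 once culture time is a block, and colours whether an exon is shared with a coding gene. Gm15564, Gm16567, Pisd-ps1 and Gm2115 lie beyond the dashed lines.

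Gm15564 (chromosome 16, 35966838 to 35983316, minus strand, 5 exons, no coding exon shared) had the largest difference upwards. It had 101, 102 and 72.0 CPM in the iBmp2fx/fx libraries of 6, 48 and 72 h and 264, 285 and 168 CPM in the iBmp2ko/ko libraries. The groups did not overlap, and the log2 fold change was 1.39 (SE 0.27, edgeR adjusted p = 0.056), or 1.37 (SE 0.12, edgeR adjusted p = 0.00057) with the block. At 24 h it had 170 and 379 CPM, so that the library labelled iBmp2ko/ko was above all others, while the iBmp2fx/fx library of 24 h was level with the iBmp2ko/ko library of 72 h. Gm15564 is listed in RefSeq as a lncRNA.

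Pisd-ps1 (chromosome 11, 3025907 to 3031007, plus strand, 7 exons) is a transcribed pseudogene of Pisd, the mitochondrial enzyme that makes phosphatidylethanolamine. It had 35.9, 31.1 and 19.8 CPM in the iBmp2fx/fx libraries and 94.0, 65.1 and 41.4 CPM in the iBmp2ko/ko libraries of 6, 48 and 72 h. All 3 iBmp2ko/ko libraries were above the iBmp2fx/fx libraries, and the log2 fold change was 1.21 (SE 0.34, edgeR adjusted p = 0.22), or 1.18 (edgeR adjusted p = 0.0016) with the block. Without the iBmp2ko/ko library of 6 h it was 0.92 and did not pass the limit. The libraries of 24 h had 24.1 CPM in the iBmp2fx/fx and 33.9 CPM in the iBmp2ko/ko cells, which is within the iBmp2fx/fx range. Pisd itself differed by 0.24 (SE 0.16). In the gene table Pisd-ps1 had 1 read in all, against 10134 in the lncRNA table, and why the tables differ was not tested.

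Gm2115 (chromosome 7, 91677485 to 91726847, plus strand, 3 exons) had the largest difference downwards. It had 43.4, 63.1 and 88.5 CPM in the iBmp2fx/fx libraries of 6, 48 and 72 h and 16.98, 17.5 and 45.0 CPM in the iBmp2ko/ko libraries. At each time the iBmp2ko/ko library was the lower, and the groups overlapped, since the iBmp2ko/ko level at 72 h was above the iBmp2fx/fx level at 6 h. The log2 fold change was -1.29 (SE 0.46, edgeR adjusted p = 0.38), or -1.39 (SE 0.18, edgeR adjusted p = 0.0029) with the block. Without the block it was -1.96 when the iBmp2ko/ko library of 72 h was left out and -0.96 when the iBmp2fx/fx library of 72 h was, and it no longer passed the limit without the latter or without the iBmp2ko/ko library of 6 h or 48 h (-1.05). At 24 h the level was 43.0 CPM in the iBmp2fx/fx and 40.5 CPM in the iBmp2ko/ko cells. The symbol is listed in RefSeq as a protein-coding gene, while GENCODE M1 has it as lincRNA.

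Among the other members called with the block, 4 share no coding exon. Cd63-ps, a processed copy of the tetraspanin gene Cd63, had 342, 290 and 169 CPM in the iBmp2fx/fx libraries and 605, 427 and 282 CPM in the iBmp2ko/ko libraries of 6, 48 and 72 h. Its log2 fold change of 0.72 (SE 0.35) stood beside 0.73 (SE 0.35) for Cd63, and over the 8 libraries their log2 levels correlated at 0.995 (Pearson, libraries shared). Reads of Cd63-ps and Cd63 may not be separable. Tmem134, the symbol of a membrane protein gene, had a log2 fold change of 0.70 (SE 0.28) without the block and 0.67 with it. The snoRNA hosts Gas5 and Snhg1 are described below.

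The other 10 share exons with a coding gene on the opposite strand. Gm16567, opposite the complement protease C1s, had 48.6, 70.7 and 22.8 CPM in the iBmp2fx/fx libraries and 100.1, 198 and 44.8 CPM in the iBmp2ko/ko libraries of 6, 48 and 72 h. C1s had 145, 211 and 64.6 CPM and 301, 599 and 129 CPM in the same libraries. Both were higher in the iBmp2ko/ko library at each time, and the log2 fold changes without the block were 1.28 (SE 0.56) and 1.30 (SE 0.60), beyond the fold limit but not past its p. The library of 24 h had 50.0 CPM of Gm16567, which is within the ranges of both genotypes.

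Of the remaining 9 members, 1810014B01Rik (0.47, opposite the endoplasmic reticulum chaperone Hsp90b1 at 0.42), Gm16867 (0.60, opposite Entpd4 at 0.46), Gm17499 (0.54, opposite Tmpo at 0.48), Gm17480 (0.62, opposite Metrn at 0.66) and Bbip1 (0.56, opposite Pdcd4 at 0.22) were higher in the iBmp2ko/ko cells. Gm17419 (-0.60, opposite the transcription factor gene Sox4 at -0.86), 2610020C07Rik (-0.51, opposite Gspt1 at -0.54), Gm17690 (-0.61, opposite Mtmr11 at -0.63) and Gm17504 (-0.57, opposite Chsy1 at -0.51) were lower. These are log2 fold changes without the block. In all 9 pairs listed but those of Bbip1 and Gm17419, lncRNA and gene lay within 0.2 of each other.

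The likeness to the coding gene held in most of the list, though less on the same strand. For 65 of the 68 members that share an exon, the coding gene could be tested in the gene table. Over the 8 libraries the median Pearson correlation of the log2 levels of a member and its gene was 0.96, and it was above 0.8 in 53 and below 0 in 3. With the genes of the other members the median was -0.01. These values share libraries and depth and are given as a description. The genotype differences lay within 0.2 of each other on the log2 scale in 53 of 65 pairs, and those between 72 and 6 h in 39. Of the 7 pairs on the same strand this held in 5 and 2. Mismatched pairs were not counted at this limit. Across the 65 pairs the differences of lncRNA and gene correlated at 0.60 for genotype and 0.94 for 72 against 6 h (Pearson). The median absolute gap was 0.07 for genotype and 0.15 for 72 against 6 h, beside median absolute changes of the lncRNAs of 0.23 and 0.44.

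If a gene's reads are spread evenly over its exons and counted without strand, the shared bases alone would give a median of 55.6% of the reads of these members, and at least 50% in 38 of 65. This is an estimate from exon lengths, not a measurement, and it passed 100% in 4. The reads that HTSeq set aside as ambiguous within the lncRNA table were 0.952 to 1.84% of the lncRNA reads. How much of each level belongs to the coding gene was not tested.

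Some pairs went apart. BC029722, opposite the metalloproteinase gene Mmp24, differed by 0.18 between the genotypes where Mmp24 differed by -3.07. Mmp24 was near 0, at 0.033 to 0.479 CPM, and the estimate from shared bases gives 0.049% of the reads of BC029722. Gm17525 fell by 1.00 at 72 h where Rbbp4 had -0.39, and 9530082P21Rik fell by 0.97 where Flywch1 had -0.25. Hsp90b1 is shared by 1810014B01Rik, on its opposite strand, and Gm15344, on its own strand. Their genotype differences were 0.47 and 0.54, and whether reads of Hsp90b1 enter both was not tested. The reads of 1810014B01Rik were 46219 by the lncRNA models and 952 by the gene models.

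**Figure D3:**
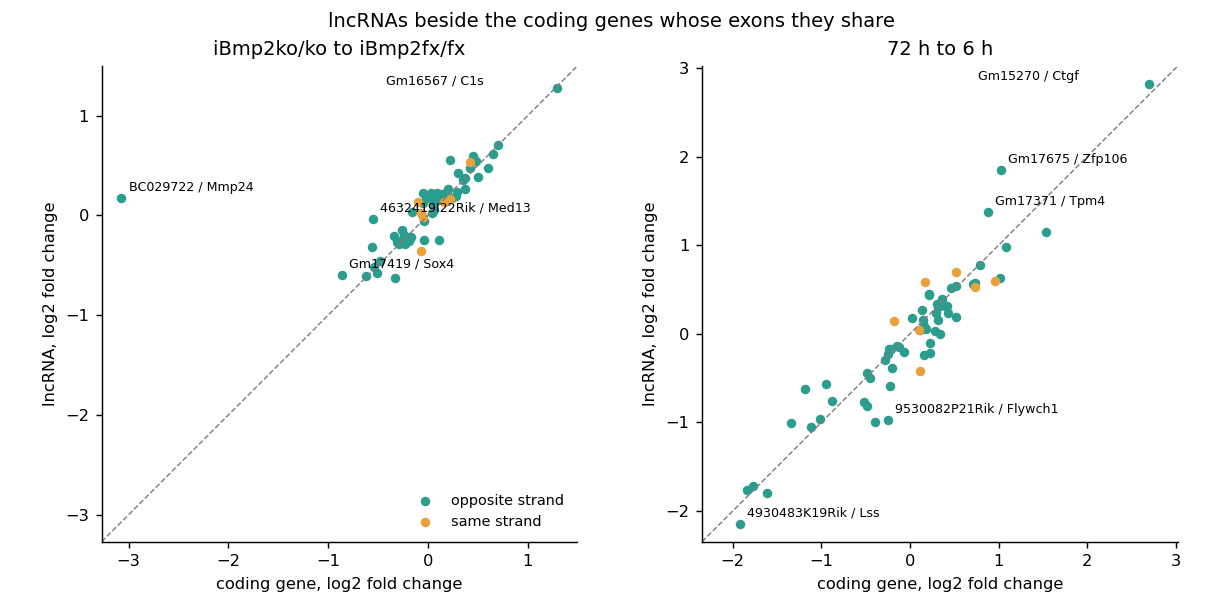
Log2 fold change of 65 lncRNAs (y axis) against that of the coding gene whose exons they share (x axis), for iBmp2ko/ko against iBmp2fx/fx cells (left) and for 72 against 6 h (right), coloured by the strand of the shared exon. The dashed line marks equal change, near which most pairs lie, and BC029722 with Mmp24 lies farthest from it on the left.

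Culture time was tested in the same 6 libraries. The slope on log2 time, with genotype as a term, called none of them (edgeR, 0 of 100 at an adjusted p of at most 0.05), nor any of all 1339. At an unadjusted p below 0.05 the slope was upward in 5 members and downward in 12, beside 12.4% and 6.95% of all lncRNAs tested, and DESeq2 called 3 rises, beside 2.84% of all. Since Malat1 and others peaked at 48 h, time was also tested as 3 separate times, a test chosen after the data were seen. By that test 46 members changed at an adjusted p of at most 0.05 (edgeR), of which 22 were higher and 24 lower at 72 h than at 6 h, beside 9.71% and 11.3% of all lncRNAs tested. The count rests most on the iBmp2ko/ko library of 6 h, without which 1 was called higher and 5 lower. It was 13 and 12 without the iBmp2fx/fx library of 72 h, 16 and 13 without the iBmp2ko/ko library of 48 h and 12 and 14 without that of 72 h. The test of a slope difference between the genotypes called no member (edgeR interaction, 0 of 100 at an adjusted p of at most 0.05) and none of all 1339. With 6 libraries it leaves little to judge the spread by, so equal slopes do not follow. Gm17675 alone had an unadjusted p below 0.05 in edgeR, and limma gave 1 such member. Over all 1339 the edgeR slope was higher in the iBmp2ko/ko cells in 25 and lower in 2 at that p.

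**Figure D4:**
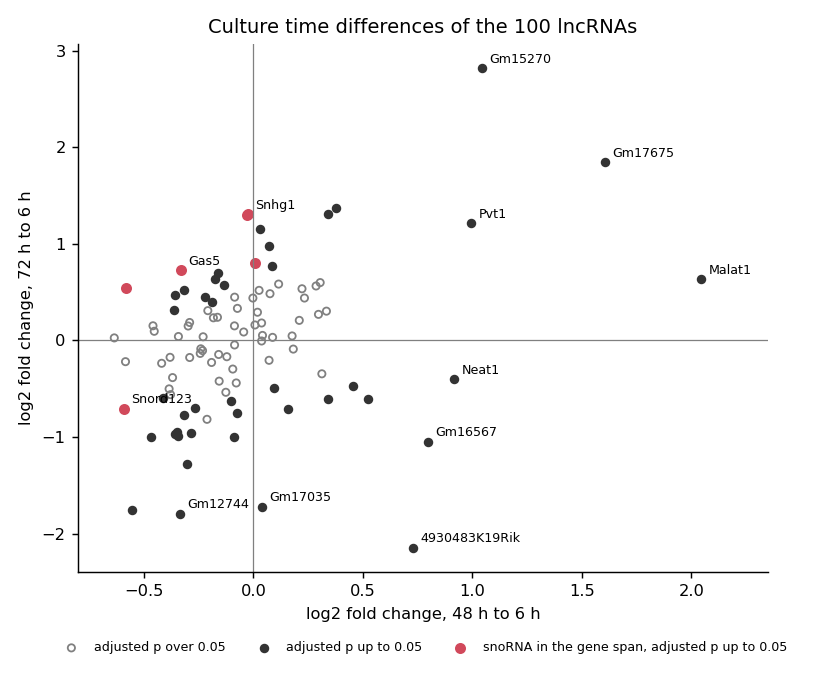
Log2 fold change from 6 to 72 h (y axis) against that from 6 to 48 h (x axis) for the 100 lncRNAs, over both genotypes. Filled points are the 46 members with an adjusted p of at most 0.05, and the red ones among them have a snoRNA in the gene, of which 5 lie above 0 at 72 h and Snord123 below. Malat1 lies far to the right, with 2.05 at 48 h and 0.64 at 72 h.

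Malat1 rose by 2.05 at 48 h and was 0.64 above its 6 h level at 72 h (edgeR adjusted p = 0.014). Neat1 was 0.92 higher at 48 h and 0.40 lower at 72 h (edgeR adjusted p = 0.015). In the gene table the 10 serine/arginine splicing factors, proteins of the nuclear speckle, had a median of 0.11 at 48 h and 0.57 at 72 h, and 7 of them were called higher at 72 h. The 9 paraspeckle proteins had medians of -0.07 and 0.68, and 6 of them were called higher, Sfpq by 0.90 and Pspc1 by 1.37. Over all 13121 genes tested the medians were -0.03 and -0.01, with 2665 called higher and 2724 lower at 72 h. Pvt1 rose by 0.99 at 48 h and by 1.21 at 72 h (edgeR adjusted p = 0.015). Tug1 had a value of -0.05 at 72 h (edgeR adjusted p = 0.89).

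The snoRNA hosts are the group with the most members of known role. The annotation places 9 snoRNAs in Gas5, 8 in Snhg1, 4 in Snhg12, 3 each in 1110038B12Rik and 2410006H16Rik, 2 in Snhg5 and 1 in Snord123, whose symbol is that of its snoRNA. Gas5 had 141, 194, 147 and 276 CPM in the iBmp2fx/fx libraries of 6, 24, 48 and 72 h, and 303, 180 and 392 CPM in the iBmp2ko/ko libraries of 6, 48 and 72 h with 148 CPM at 24 h. Snhg1 had 57.3, 90.8, 65.8 and 145 CPM, and 105, 85.5 and 232 CPM with 62.6 CPM at 24 h. Both were highest at 72 h in each genotype and higher in the iBmp2ko/ko library at 6, 48 and 72 h, but not at 24 h.

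From 6 to 72 h Gas5 rose by 0.73 (edgeR adjusted p = 0.021), Snhg1 by 1.31 (edgeR adjusted p = 0.0043), Snhg5 by 1.30, Snhg12 by 0.80 and 1110038B12Rik by 0.54, all past an adjusted p of 0.05. 2410006H16Rik had a value of 0.09 and was not called. Snord123 fell by 0.71 (edgeR adjusted p = 0.048). Of the 10 snoRNA host lncRNAs tested from a list of 26, members of the 100 or not, 7 were higher at 72 h and none lower at an adjusted p of at most 0.05 in edgeR (0 of 10), with a median of 0.76, beside 9.71% higher and 11.3% lower of all lncRNAs tested. The 87 5′TOP translation genes tested had a median of -0.41 at 48 h and 0.35 at 72 h, with 46 called higher and 9 lower at 72 h, beside 2665 and 2724 of all 13121 genes. At 48 h the 7 snoRNA hosts among the 100 had a median of -0.33. Their genotype differences were above 0 in all 7, from 0.03 to 0.66, with a median of 0.46, as were those of 64 of the 100 and of 693 of all 1339 lncRNAs tested, and none passed the fold and p limit (edgeR, 0 of 7, beside 3.14% higher and 3.58% lower of all). The pair of libraries labelled 24 h ran the other way for 6 of these hosts, with log2 differences from -0.15 (1110038B12Rik) to -0.79 (Snhg12), and not for Snord123 (0.95). Over the 6 libraries the median genotype difference of the 5′TOP genes was 0.35, and that of all genes tested was 0.03. With the block Gas5 (0.63, edgeR adjusted p = 0.048) and Snhg1 (0.65, edgeR adjusted p = 0.022) were called.

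**Figure D5:**
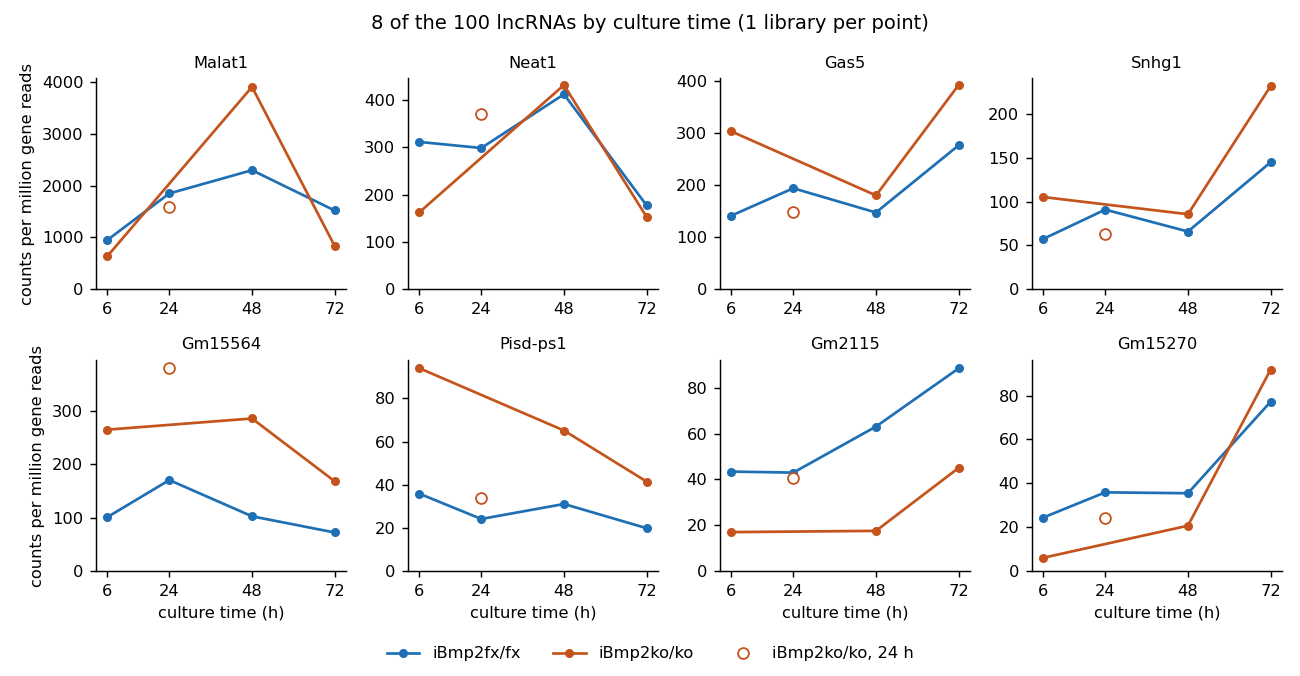
Level in CPM of the gene reads (y axis, from 0) against culture time in h (x axis) of 8 of the 100 lncRNAs, 1 library per point, with the iBmp2ko/ko library of 24 h as an open circle. Gas5 and Snhg1 are highest at 72 h in both genotypes, Malat1 and Neat1 at 48 h, and for Pisd-ps1 and Gm2115 the open circle lies near the iBmp2fx/fx line while for Gm15564 it lies above all points.

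Of the 5 largest rises and 5 largest falls at 72 h, 7 were in members that lie opposite coding genes, as 61 of all 100 do. Gm15270, opposite Ctgf, a matrix-linked growth factor gene and a YAP target, had 24.4, 35.5 and 77.2 CPM in the iBmp2fx/fx libraries and 6.02, 20.7 and 91.9 CPM in the iBmp2ko/ko libraries of 6, 48 and 72 h. It rose by 2.82 at 72 h (edgeR adjusted p = 0.0099) beside 2.70 for Ctgf. The other large rises were Gm17675 (1.85, opposite Zfp106 at 1.02), Gm17371 (1.37, opposite the tropomyosin gene Tpm4 at 0.88), Snhg1 and Gm2115 (1.30). The largest falls were 4930483K19Rik (-2.15, opposite Lss, the lanosterol synthase of cholesterol synthesis, at -1.92), Gm12744 (-1.79), Gm12841 (-1.76, opposite the proton pump subunit Atp6v0b at -1.84), Gm17035 (-1.72, opposite Ndrg1 at -1.77) and 1810058I24Rik (-1.28), which GENCODE M1 has as lincRNA and RefSeq as protein coding. 4930483K19Rik had 43.8, 53.4 and 8.85 CPM in the iBmp2fx/fx libraries and 40.9, 87.8 and 9.39 CPM in the iBmp2ko/ko libraries. The 2 libraries of 72 h were far below the other 4.

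Gm9917, opposite the tumour suppressor gene Rassf1, had 53.4, 59.2 and 112 CPM in the iBmp2fx/fx and 72.1, 69.6 and 120 CPM in the iBmp2ko/ko libraries. It rose by 0.98 at 72 h beside 1.08 for Rassf1. Of the 46 members called by time, 24 share exons on the opposite strand with a coding gene, as 61 of all 100 do. In both genotypes 34 of the 100 were highest and 37 lowest at 72 h. This was not counted over all lncRNAs tested, so it cannot be called particular to the 100. Gm20427, the second in reads, shares exons with the zinc transporter gene Slc39a7 on the same strand, ranged from 272 to 400 CPM and had a value of 0.04 at 72 h. Gm17431 (0.45), Gm17638 (0.40, opposite Eif3d at 0.36) and Gm13826 (0.15), whose locus RefSeq lists as protein coding, were further members of the 10 most abundant. Of the rest of these 10, Cd63-ps fell by 0.99 (edgeR adjusted p = 0.0099), 1810014B01Rik rose by 0.58 (edgeR adjusted p = 0.021) and 4632419I22Rik had a value of -0.0061.

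Dnm3os is the host of 2 microRNAs that are abundant in mesenchyme, Mir199a-2 and Mir214, whose mature forms (RefSeq, GRCm38.p6) are given with the seed, bases 2 to 8, in capitals.
mmu-miR-199a-5p: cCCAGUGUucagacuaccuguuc
mmu-miR-199a-3p: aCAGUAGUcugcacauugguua
mmu-miR-214-5p: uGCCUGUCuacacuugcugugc
mmu-miR-214-3p: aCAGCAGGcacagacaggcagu
The 4 seeds differ from each other. The host had 65.6, 57.6, 69.8 and 39.2 CPM in the iBmp2fx/fx libraries of 6, 24, 48 and 72 h, and 47.5, 81.4 and 37.8 CPM in the iBmp2ko/ko libraries of 6, 48 and 72 h with 69.6 CPM at 24 h. Like Malat1 and Neat1 it was highest at 48 h in both genotypes over the 6 libraries, as were 8 of the 100. The share with this peak over all lncRNAs tested was not counted. Dnm3os was 0.45 higher at 48 h and 0.47 lower at 72 h than at 6 h (edgeR adjusted p = 0.028), and its genotype difference was -0.06 (SE 0.34). The microRNAs themselves were not measured here.

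Hoxb3os, a transcript of the HoxB cluster that shares exons with Hoxb2 on the opposite strand, had 61.2, 46.2 and 54.4 CPM in the iBmp2fx/fx libraries and 47.3, 43.1 and 39.6 CPM in the iBmp2ko/ko libraries of 6, 48 and 72 h. The ranges overlapped slightly, and the difference of -0.31 (SE 0.21, edgeR adjusted p = 0.73) stood beside -0.56 for Hoxb2. Of the lists of lncRNAs by role, the microRNA hosts and the imprinted lncRNAs as listed had no member among the 100. Dnm3os and Ttc28, in which the annotation places microRNAs, are not on the microRNA host list. Of the nuclear list 6 of 15 could be tested, of which 2 were higher and 1 lower at 72 h (edgeR, beside 9.71% and 11.3% of all lncRNAs tested), and of the HoxB and other Hox cluster lncRNAs 4 of 5, of which 1 was higher.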

How the data were processed

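Total RNA of 8 libraries was sequenced, single-end by the labels, while the study's methods speak of paired reads. The authors aligned the reads to mm9 with TopHat2 2.0.8b after CASAVA 1.8.2, counted them with HTSeq, and deposited whole-number read counts per gene symbol and per lncRNA symbol for each library, without normalization. The 5 counter rows of each table and the 5 symbols that the rule names, with at most 2563 reads each, were left out.

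Members and lists were chosen with earlier results of these data known. Annotation was GENCODE M1. Tests used edgeR 4.0.16 (quasi-likelihood) in R 4.3.3, scaled by the totals and TMM factors from the gene counts, with edgeR's filter on low counts, and Benjamini-Hochberg adjustment over 1339 lncRNAs. The script was tested on simulated data. CPM were scaled to the total of gene reads, log2 CPM used a pseudocount of 2, and CPM of 3 counts is 0.0925 to 0.116, for counting error only. Culture time pairs the libraries: deviations of the 2 genotypes correlated at 0.63, 0.46 and 0.72 at 6, 48 and 72 h, while over all 8 libraries they correlated at 0.56, -0.15, 0.32 and 0.70 at 6, 24, 48 and 72 h.

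Named are the 10 members with the most reads, those past the genotype limit, the 5 largest rises and 5 largest falls with time, the 5 steadiest, those around the abundance limit, and members of the role lists. The time part of this rule was applied to the test of 3 times, since the slope called none. Others were named after their values were seen. The alternatives were all 8 or 7 libraries, the block, other scalings, no filter, DESeq2 1.42.0, limma 3.58.1 and leaving out each library. Figures were drawn with matplotlib 3.10.9. Reads were not realigned.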

Additional observations from a re-analysis of the deposited data

Results flagged for a closer look

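In 2 of 74 groups of 4 libraries, taken from the named members in each genotype, 1 library lay far from the others by Dixon's ratio of gap to range, where chance alone gives about 1 in 20. The iBmp2ko/ko library of 72 h had 80.3 CPM of Gm17371, against 32.2 to 37.5 CPM in the other 3, with a ratio of 0.890. The library labelled iBmp2ko/ko at 24 h had 154 CPM of Tug1, against 102 to 107 CPM in the other 3, with a ratio of 0.894.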

How the results depend on the processing

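By the fold and p limit, leaving out 1 library gave 1 to 4 members higher and 0 to 2 lower in the iBmp2ko/ko cells, and all 8 libraries gave 0 lower. At an adjusted p of at most 0.05, with edgeR unless named, the replicate block of culture time gave 12 higher and 5 lower over 6 libraries, 9 and 5 over 7 and 1 higher over 8, where no filter gave 2 higher, DESeq2 1, and leaving out 1 library 0 to 1. For the slope, no filter gave 4 rising and 1 falling, DESeq2 3 rising, and leaving out 1 library 0 to 5 rising and 0 to 1 falling. For the 3 times, 14 were lower at 72 h over 7 libraries, and leaving out 1 library gave 1 to 32 higher and 5 to 32 lower. The test of 3 times and its alternatives, and the block over 7 libraries, were chosen after seeing the data. Of 37 named members 23 kept the sign of the genotype difference under every alternative run. Malat1 turned to -0.23, -0.24 and -0.24 with the block over 6, 8 and 7 libraries and to -0.22 with limma. Gm20427 had 0.014 over 8 libraries, 0.0050 over 7 and 0.0034 with the block over 8, Gm17431 0.044, 0.024 and 0.049, and Dnm3os 0.015 over 8 libraries. Leaving out 1 library turned the sign of the difference in Malat1 (-1.10 to 0.58), Gm20427 (-0.10 to 0.13), Gm17431 (-0.26 to 0.18), Neat1 (-0.91 to 0.028), Gm17638 (-0.30 to 0.10), 4930483K19Rik (-0.50 to 0.84), Gm12744 (-0.19 to 0.54), Gm12841 (-0.20 to 0.64), Gm15270 (-1.82 to 0.47), Gm17371 (-0.82 to 0.21), Gm14872 (-0.17 to 0.055), Pvt1 (-0.57 to 0.077), Snhg5 (-0.26 to 0.93) and Dnm3os (-0.44 to 0.12). The causes were not tested. The fewest reads of a member in a library were 177, so depth limits none of these levels to the floor of 3 counts.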
